A study of Mus musculus with 12 samples.

Results

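Proprioceptor and mechanoreceptor genes are described here across preparations of mouse sensory ganglia. Of the 24490 gene rows of the expression table, 9 carry the symbols Pvalb, Calb1, Necab2, Runx3, Etv1, Esrrg, Shox2, Maf and Spp1. They were taken by symbol, as genes that the field uses for proprioceptors and low-threshold mechanoreceptors. The table holds RNA-sequencing of mouse dorsal root ganglia (DRG) in 3 preparations with 4 samples each. Intact samples were whole ganglia frozen at once, unsorted samples (titled Dissociated) were ganglia digested with enzymes into a cell suspension, and MACS-sorted samples were such suspensions passed over a magnetic column after antibody labelling of non-neuronal cells, with the unlabelled cells collected. All mice were adult C57Bl/6 males for which no transgene or treatment is named, ganglia came from all spinal levels, and a sample held material from 1 mouse (intact), 2 mice (unsorted) or 8 mice (MACS-sorted). The number of mice in a pool and the preparation cannot be told apart, and neither can cell loss at each step and the antibody selection. Values are fragments per kilobase of transcript and per sequencing depth (FPKM), a level per length.

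Proprioceptors are the DRG neurons that innervate muscle spindles and Golgi tendon organs and report muscle stretch and force, while low-threshold mechanoreceptors innervate skin and report touch. Proprioceptors and many, but not all, low-threshold mechanoreceptors have large cell bodies and thick myelinated axons. Most nociceptors, which detect painful stimuli, are smaller. Runx3 is the transcription factor that consolidates the proprioceptor fate, Etv1 is needed for proprioceptive connections, Shox2 and Maf act in the development of touch neurons, and Pvalb, a calcium buffer, is the classical marker of proprioceptors.

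Promoter sequence is shown for Runx3, Spp1 and Pvalb, chosen because their windows hold a motif, and for Shox2 and Necab2, whose windows hold none. RefSeq promoter windows of GRCm38.p6, the build of the deposited coordinates (mm10), were found for 7 of the 9 genes (all but Calb1 and Maf), and those printed are the 250 bases before the start site on the strand of the gene. Capitals mark short motifs of factors related to the genes themselves, searched on both strands: a Runx core (TGTGGT or ACCACA) and an Ets core (CCGGAA or TTCCGG). None of the 5 windows shown holds a nuclear receptor element (AAGGTCA or TGACCTT) or a Maf element (TGCTGAC or GTCAGCA), which were searched as well. The Runx3 window spans chr4:135120395-135120644 (plus strand), the Spp1 window chr5:104434861-104435110 (plus strand), the Pvalb window chr15:78206401-78206650 (minus strand), the Shox2 window chr3:66981772-66982021 (minus strand) and the Necab2 window chr8:119446469-119446718 (plus strand).
Runx3: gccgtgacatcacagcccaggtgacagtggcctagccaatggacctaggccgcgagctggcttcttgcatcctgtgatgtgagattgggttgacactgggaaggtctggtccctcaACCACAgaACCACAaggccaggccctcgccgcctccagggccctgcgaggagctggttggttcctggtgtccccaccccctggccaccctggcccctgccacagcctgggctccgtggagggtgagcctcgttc
Spp1: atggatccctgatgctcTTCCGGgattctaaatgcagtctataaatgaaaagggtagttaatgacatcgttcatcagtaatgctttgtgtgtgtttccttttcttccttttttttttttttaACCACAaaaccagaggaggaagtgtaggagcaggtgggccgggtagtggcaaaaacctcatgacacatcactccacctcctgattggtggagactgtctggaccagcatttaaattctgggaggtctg
Pvalb: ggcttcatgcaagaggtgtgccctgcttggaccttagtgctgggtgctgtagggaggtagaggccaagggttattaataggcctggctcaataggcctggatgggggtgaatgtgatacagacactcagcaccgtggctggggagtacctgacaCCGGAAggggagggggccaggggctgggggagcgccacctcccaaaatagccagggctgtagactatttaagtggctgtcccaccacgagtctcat
Shox2: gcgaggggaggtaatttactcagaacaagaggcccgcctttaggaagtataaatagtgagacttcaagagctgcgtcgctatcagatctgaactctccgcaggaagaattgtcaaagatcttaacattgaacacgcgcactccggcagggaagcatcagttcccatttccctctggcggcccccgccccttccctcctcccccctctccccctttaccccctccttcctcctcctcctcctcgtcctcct
Necab2: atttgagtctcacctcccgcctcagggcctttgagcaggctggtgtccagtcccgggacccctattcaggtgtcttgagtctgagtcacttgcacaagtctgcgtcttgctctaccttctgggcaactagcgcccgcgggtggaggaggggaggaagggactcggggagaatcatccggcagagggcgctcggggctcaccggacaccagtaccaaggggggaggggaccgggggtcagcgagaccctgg

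The Runx3 window holds the Runx core 134 and 126 bases before its start. In the Spp1 window a Runx core lies 128 bases and an Ets core 233 bases before the start, and the Pvalb window holds an Ets core 96 bases before it. Etv1, not shown, has a Runx core 192 bases before the start of one of its windows and a Maf element 25 bases before that of another. The 4 Esrrg windows, the Shox2 and Necab2 windows and a second window each of Runx3, Spp1 and Pvalb held none of the motifs. Of the 14 windows of the 7 genes, 3 held the Runx core, 2 the Ets core, 1 the Maf element and 0 the nuclear receptor element. Such short motifs are common, since 14.0% of the 32851 mouse promoter windows searched held the Runx core and 3952 of them the Ets core. Of the same windows 3.81% held the Maf element and 4.08% the nuclear receptor element. A match describes the letters only and is not a binding site. A link between motifs and the change on sorting was not tested.

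Expression totals lay between 283676 and 345341 FPKM, and the estimated depth between 13600000 and 19200000 fragments per sample. The summed level of 8 pan-neuronal genes was 3502 to 3740 FPKM in intact, 4194 to 4523 FPKM in unsorted and 3769 to 4822 FPKM in MACS-sorted samples, so neuronal RNA was present in every sample. Intact replicate 1 stood apart, with 3592 FPKM summed over 10 skeletal muscle genes against 19.3 to 82.5 FPKM in the other intact samples and at most 10.3 FPKM in any dissociated or sorted sample. Pvalb is also a gene of fast skeletal muscle, and its comparisons with intact samples are given with and without intact replicate 1. MACS-sorted samples held 1678 to 15360 FPKM of 7 red blood cell genes, against 112 to 737 FPKM in the other samples.

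The first comparison, MACS-sorted against unsorted DRG, is the one the study used to define genes of nociceptors. Of the 9 genes 8 fell on sorting and Necab2 did not pass the test. A gene is said to have fallen or risen when its adjusted p was under 0.05 (limma, two-sided, Benjamini-Hochberg over the 12038 genes whose mean reached 1 FPKM). By that measure 27.7% of all tested genes fell and 18.8% rose. The median log2-fold change of the 9 genes was -3.30, beside -0.04 over all tested genes. Runx3, Esrrg and Shox2 entered the test only through their level in unsorted samples, as their means in MACS-sorted samples were under 1 FPKM. Under the stricter criteria of the study (adjusted p under 0.05, log2 ratio of means beyond 0.5 and over 5 FPKM in the higher group) 6 of the 9 were called lower, beside 12.5% of all genes. In these bulk samples fewer cells of a type and less RNA per cell cannot be told apart.

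**Figure D1:**
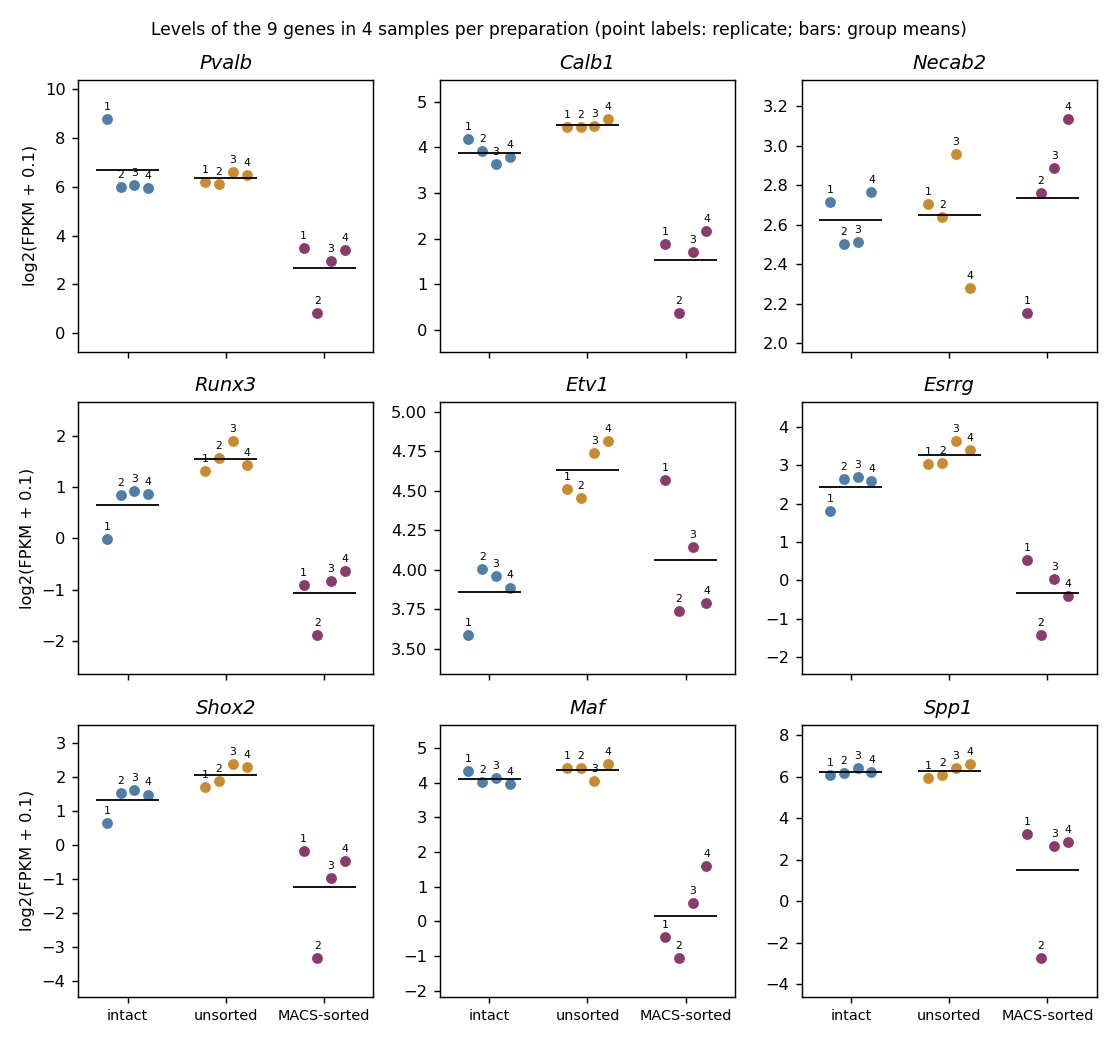
Level of each of the 9 genes as log2(FPKM + 0.1) in every sample, with 1 panel per gene, its own vertical axis, points numbered by replicate and bars at the group means of the log2 values. In 7 panels all MACS-sorted points lie below all unsorted points, Necab2 and Etv1 overlap, and intact replicate 1 stands far above the other intact samples for Pvalb.

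Of the 3 calcium-binding proteins, Pvalb was the most abundant before sorting. Pvalb (chromosome 15, 78191118 to 78206351) was at 73.8, 69.4, 98.2 and 88.4 FPKM in unsorted and at 11.1, 1.68, 7.73 and 10.6 FPKM in the sorted replicates 1 to 4. All sorted samples were lower than all unsorted ones, and MACS-sorted replicate 2 was the lowest. The mean went from 82.4 ± 13.3 (SD, n = 4) to 7.80 ± 4.35 FPKM (SD, n = 4), which is 10.6-fold lower. On the log2(FPKM + 0.1) scale the change was -3.67 (SE 0.51, adjusted p = 0.00028, limma), and without MACS-sorted replicate 2 it was -3.06 (adjusted p = 2.15e-06, limma), a fold smaller by more than 1.5 times.

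Calb1 encodes calbindin-D28k, a cytosolic calcium buffer, and lies on chromosome 4 from 15881264 to 15906709. Its level was 21.6, 21.6, 21.9 and 24.7 FPKM in unsorted and 3.56, 1.19, 3.15 and 4.38 FPKM in the sorted replicates 1 to 4. The groups were separate, again with the lowest value in MACS-sorted replicate 2. The mean was 7.30-fold lower after sorting, with a log2-fold change of -2.96 (SE 0.33, adjusted p = 6.6e-05, limma).

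Necab2 encodes a neuronal EF-hand calcium-binding protein and lies on chromosome 8 from 119446719 to 119472635. It was at 6.42, 6.14, 7.68 and 4.76 FPKM in unsorted and at 4.35, 6.67, 7.31 and 8.70 FPKM in the sorted replicates 1 to 4. The groups overlapped over most of their range. The log2-fold change was 0.09 (SE 0.21, adjusted p = 0.76, limma), and its sign changed to -0.03 without unsorted replicate 4 and to -0.05 without MACS-sorted replicate 4.

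All 5 transcription factors fell, 4 of them without overlap between the groups. Of all tested genes 27.8% did not overlap in that direction. Esrrg, an orphan nuclear receptor (chromosome 1, 187609006 to 188214884), was at 8.07, 8.16, 12.3 and 10.5 FPKM in unsorted and at 1.34, 0.269, 0.923 and 0.659 FPKM in the sorted replicates 1 to 4. Every sorted value was far under every unsorted value. The mean was 12.2-fold lower and the log2-fold change -3.60 (SE 0.37, adjusted p = 4.3e-05, limma).

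Maf, a basic leucine zipper factor (chromosome 8, 115703253 to 115706894), was at 21.6, 21.6, 16.5 and 23.4 FPKM in unsorted and at 0.627, 0.380, 1.33 and 2.90 FPKM in the sorted replicates 1 to 4. The sorted samples were all low but spread among themselves, with replicate 4 highest. The mean was 15.9-fold lower and the log2-fold change -4.23 (SE 0.48, adjusted p = 7.8e-05, limma). An annotated antisense gene overlaps Maf, and whether counting used strand is not stated. Antisense genes also overlap Runx3 and Esrrg, and annotated genes on the same strand overlap Esrrg and Spp1.

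Runx3, of the Runt family (chromosome 4, 135120645 to 135177990), was low throughout, at 2.38, 2.85, 3.63 and 2.61 FPKM in unsorted and 0.429, 0.169, 0.460 and 0.545 FPKM in the sorted replicates 1 to 4. The groups did not overlap, and the mean was 7.16-fold lower (log2-fold change -2.62, SE 0.30, adjusted p = 9.4e-05, limma). It was not called by the stricter criteria because no group exceeded 5 FPKM. Its size depended on the pseudocount, with log2-fold changes of -1.46 at a pseudocount of 1 and -2.91 at 0.01, both past the test.

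Shox2, a homeodomain factor (chromosome 3, 66973266 to 66981771), was at 3.11, 3.60, 5.13 and 4.81 FPKM in unsorted replicates 1 to 4. In MACS-sorted replicates 1, 3 and 4 it was at 0.773, 0.408 and 0.624 FPKM, and replicate 2 is listed at 0. All sorted values were below the unsorted ones. The log2-fold change was -3.30 (SE 0.61, adjusted p = 0.0015, limma) and -2.61 (adjusted p = 6.31e-05, limma) without MACS-sorted replicate 2, so that 1 sample moved the fold by over 1.5 times. At pseudocounts of 1 and 0.01 it was -1.84 and -4.26 (adjusted p of 4.25e-05 and 0.0173, limma). At a pseudocount of 1 the folds of Esrrg, Maf and Spp1 were also smaller by more than 1.5 times (-2.60, -3.35 and -3.96). Shox2 overlaps the 5′ end of Rsrc1 on the other strand, and it also stayed under 5 FPKM in group means.

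Etv1, an Ets factor (chromosome 12, 38780258 to 38868215), had the smallest log2-fold change of the 5 factors. Its level was 22.7, 21.8, 26.6 and 28.0 FPKM in unsorted and 23.6, 13.3, 17.6 and 13.8 FPKM in the sorted replicates 1 to 4. MACS-sorted replicate 1 lay inside the unsorted range and the other 3 below it. The mean was 1.45-fold lower, with a log2-fold change of -0.57 (SE 0.18, adjusted p = 0.024, limma), and an exact permutation test of the means gave p = 0.0857. This call was lost when any 1 of unsorted replicates 3 and 4 or MACS-sorted replicates 2 and 4 was left out, with log2-fold changes of -0.53, -0.51, -0.46 and -0.48 and adjusted p between 0.0543 and 0.0679 (limma).

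Spp1 encodes osteopontin, a secreted phosphoprotein of bone matrix and immune cells that is also abundant in proprioceptors, and lies on chromosome 5 from 104435111 to 104441053. It was at 61.7, 66.8, 85.8 and 99.0 FPKM in unsorted and at 9.20, 0.0509, 6.30 and 7.08 FPKM in the sorted replicates 1 to 4. The highest sorted value was 181 times the lowest, that of replicate 2, and all sorted samples were below all unsorted ones. The mean was 13.9-fold lower. The log2-fold change was -4.77 (SE 1.13, adjusted p = 0.0067, limma), which became -3.36 (SE 0.18, adjusted p = 3.13e-06, limma) without MACS-sorted replicate 2.

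**Figure D2:**
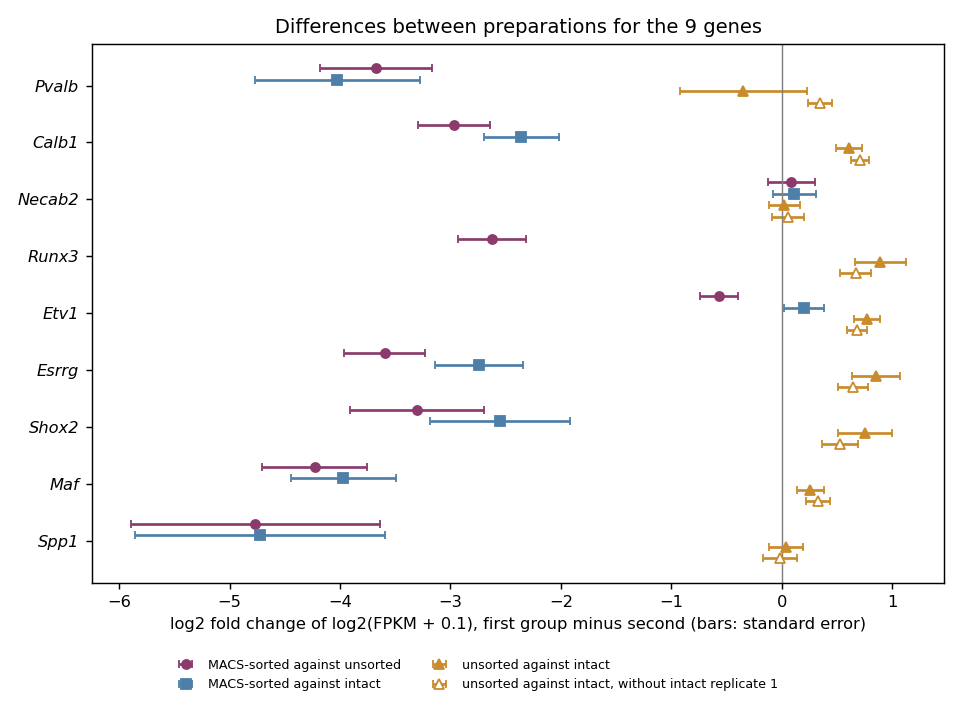
Log2-fold change on the log2(FPKM + 0.1) scale for each gene in the 3 comparisons, with bars of 1 standard error; open triangles repeat unsorted against intact without intact replicate 1. Most sorted-against-other points lie between -2 and -5, Necab2 and Etv1 lie close to 0, and the Pvalb triangle moves from -0.35 to 0.35 when intact replicate 1 is left out. Runx3 has no point for MACS-sorted against intact samples because its mean over those 8 samples was under 1 FPKM.

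A single sorted sample was low for most of the 9 genes. MACS-sorted replicate 2 was the lowest of the 4 for 8 of the 9 genes (Necab2 excepted) and for 17 of 30 further large-diameter neuron genes, while it was the lowest for 24.2% of the 12283 genes whose mean over all samples reached 1 FPKM. Its pan-neuronal sum was the highest of the sorted samples, 4822 FPKM, and its endothelial sum the lowest, 10.8 FPKM against 42.0 to 63.9 FPKM in the others and 35.8 to 47.2 FPKM in unsorted samples. Why this sample stands apart was not tested.

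Other cell types of the ganglion were followed through summed markers. Satellite glia markers (6 genes) summed to 89.1 to 189 FPKM in MACS-sorted and 2103 to 2654 FPKM in unsorted samples, Schwann cell markers (6 genes) to 517 to 1204 and 2007 to 3257 FPKM, and fibroblast markers (5 genes) to 7.36 to 28.0 and 139 to 276 FPKM. Macrophage markers, of cells that can make Spp1 and Maf, summed over 6 genes to 0.608 to 2.20 FPKM in MACS-sorted and 8.82 to 18.9 FPKM in unsorted samples, and bone and cartilage markers (7 genes) to 0.0929 to 1.07 and 7.36 to 9.28 FPKM. Sp7, Acan and Bglap2 of the bone and cartilage list are listed at 0 in all 4 sorted samples. Their unsorted means were also near the floor, at 0.033, 0.23 and 0.10 FPKM. Most of the unsorted bone and cartilage sum came from Alpl (mean 4.93 FPKM) and Ibsp (mean 2.41 FPKM). The summed markers above moved in the same direction as 8 of the 9 genes, and their part in the result was not tested. The 5 lymphocyte markers summed to 1.11 to 4.94 FPKM in MACS-sorted and 0.0551 to 0.809 FPKM in unsorted samples, and all were too low to enter the test. Runx3 is a factor also active in T cells, and the part of such cells in its values was not tested.

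**Figure D3:**
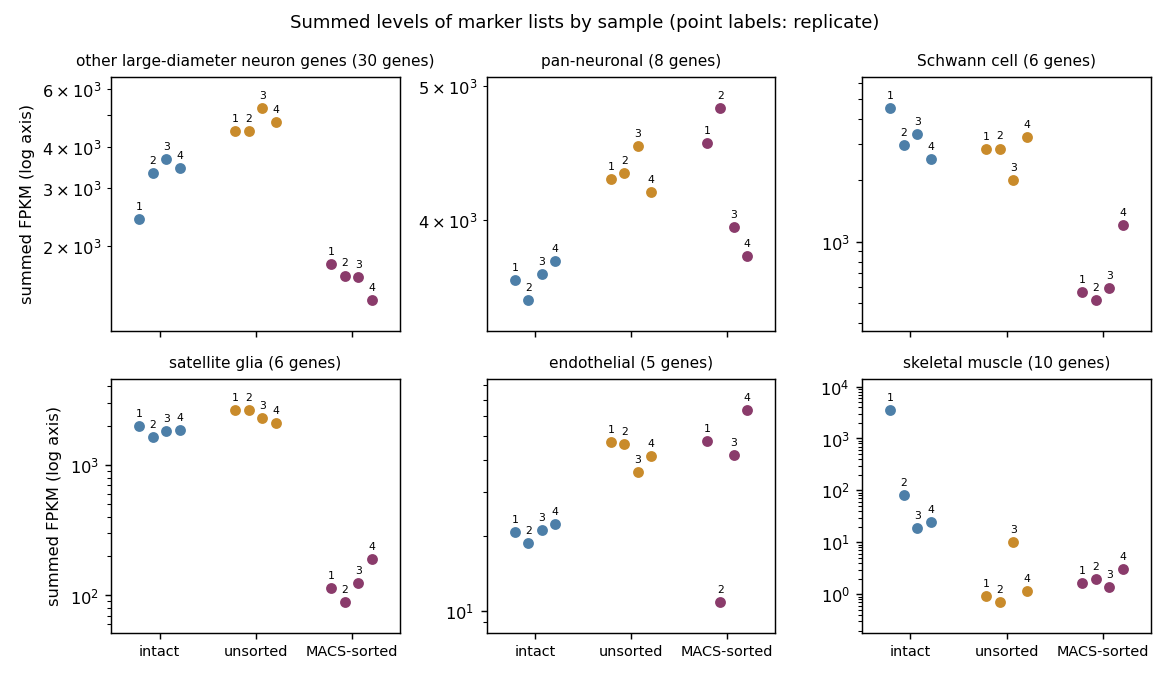
Summed FPKM (log axis, 1 axis per panel) of 6 marker lists in each sample, with points numbered by replicate. The sum of large-diameter neuron genes, with the neurofilament gene Nefl as its largest part, is lowest after sorting. Pan-neuronal sums lie between 3502 and 4822 FPKM, glial sums fall with sorting, and intact replicate 1 alone carries 3592 FPKM of skeletal muscle genes.

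A wider list of 30 genes of large-diameter neurons was measured the same way. It was chosen for known roles in such neurons, with earlier results of these data known. Of the 27 tested in MACS-sorted against unsorted samples, 23 fell, 3 rose and Cacna1h did not pass the test, with a median log2-fold change of -2.17. Nefh, the heavy neurofilament of myelinated axons, was at 666 ± 63.9 FPKM before and 76.5 ± 20.2 FPKM after sorting (SD, n = 4 each) and changed by -3.16 on the log2 scale (adjusted p = 1.2e-06, limma). The neurotrophin receptors Ntrk2 (TrkB, log2-fold change -3.53) and Ntrk3 (TrkC, the proprioceptor receptor, -1.46) also fell, at adjusted p of 5.3e-06 and 3.7e-05 (limma). Glia express a truncated form of TrkB, gene-level FPKM do not separate the forms, and the part of the satellite glia sums, which fell as well, in the Ntrk2 value was not tested. The 3 largest falls on the list were Calb2 (-4.72), Mafa (-4.53) and Hapln4 (-3.85). That order depended on the pseudocount, since at 1 Calb2 (-2.94) and Mafa (-2.0) had smaller changes than Ntrk2 (-3.19), Hapln4 (-3.18) and Nefh (-3.14), and at 0.01 Mafa (-6.59) came before Calb2 (-5.76). Calb2, Mafa and Colq had means under 1 FPKM in MACS-sorted samples and entered the test only through their unsorted level. Npy2r (0.84, adjusted p = 0.043, limma), Asic2 (0.72) and Piezo2 (0.47, adjusted p = 0.0029, limma), the mechanotransduction channel of touch and proprioception that other DRG neurons express as well, were the 3 that rose. The Npy2r value came mainly from MACS-sorted replicate 1, at 24.6 FPKM against 8.63 to 10.4 FPKM in the others, and its call was lost without any 1 of unsorted replicates 1 to 4 or without MACS-sorted replicate 3 (adjusted p 0.0611 to 0.113, limma). It was also lost without the filter, without the trend, with pan-neuronal scaling and with unsorted replicates 1 and 2 averaged (adjusted p of 0.0566, 0.0626, 0.0524 and 0.0649, limma), and the Piezo2 call was lost in a fit of all 12 samples (adjusted p = 0.0576, limma). Among 11 nociceptor genes 9 rose, 1 fell and 1 did not pass the test, with a median of 0.73. The 8 pan-neuronal genes did not move together, as 3 rose, 2 fell and 3 did not pass the test, with a median of 0.225.

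**Figure D4:**
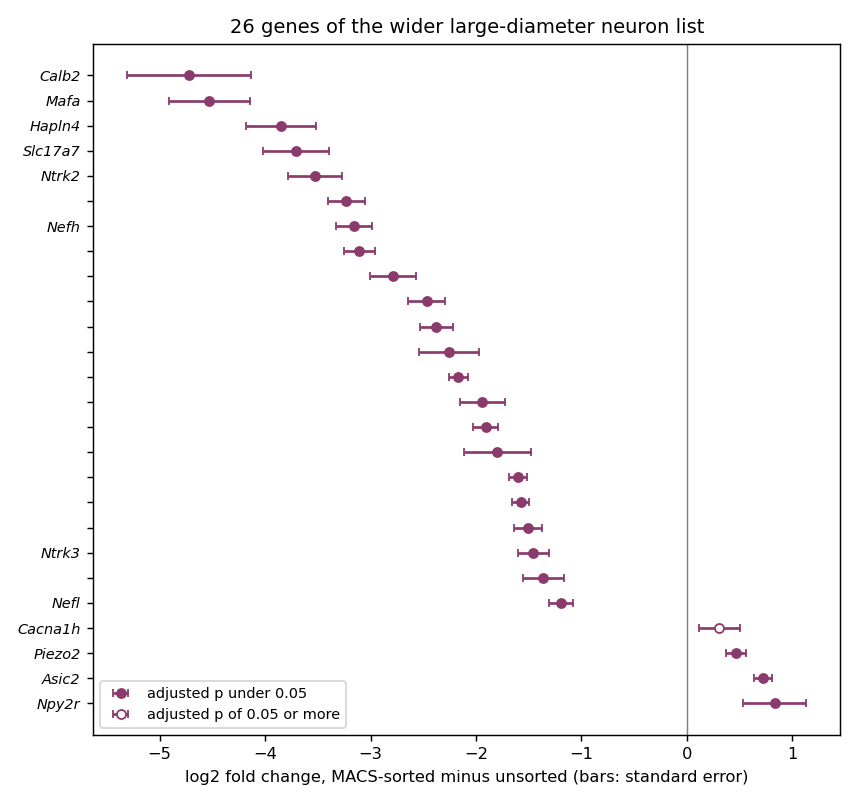
Log2-fold change, MACS-sorted minus unsorted, of 26 of the 27 tested genes of the wider large-diameter neuron list, with bars of 1 standard error and filled points at an adjusted p under 0.05; genes named in the text are labelled. All but 4 genes shown lie left of 0, from Nefl at -1.19 to Calb2 at -4.72.

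The second comparison, unsorted against intact DRG, sets the dissociated suspension beside whole ganglia for the same genes. Of the 9 genes 4 rose and 5 did not pass the test, while 14.8% of the 12392 tested genes rose and 7.79% fell. The median log2-fold change of the 9 was 0.61 beside 0.01 over all genes. Under the stricter criteria 3 were called higher (4.29% of all genes). Intact replicate 1 was the lowest intact sample for 5 of the 9 genes and for 22 of the 30 further large-diameter neuron genes, and the lowest for 40.3% of all genes. Markers of other cells moved between these preparations too. All 5 endothelial markers rose (median log2-fold change 1.17), as did 3 of 6 satellite glia markers (0.35) and 4 of 8 pan-neuronal genes (0.31), while all 5 fibroblast markers (-1.16), 5 of 6 macrophage markers (-1.29) and 8 of 10 skeletal muscle genes (-5.11) fell. The 6 Schwann cell markers, with a median of -0.23, did not pass the test. Their part in the result was not tested.

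Intact levels of Etv1 were 11.9, 15.9, 15.5 and 14.7 FPKM in replicates 1 to 4, all below the unsorted samples. Its log2-fold change was 0.77 (SE 0.12, adjusted p = 0.0044, limma). Calb1 was at 18.1, 15.0, 12.3 and 13.8 FPKM in intact samples, again all below the unsorted ones, and rose by 0.61 (SE 0.12, adjusted p = 0.009, limma). When each sample was scaled to its pan-neuronal genes the Calb1 change was 0.34 and no longer passed the test (adjusted p = 0.0838, limma).

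Esrrg and Runx3 rose as well, with less margin. Intact Esrrg was at 3.38, 6.14, 6.32 and 5.86 FPKM, with replicate 1 lowest and no overlap with unsorted samples, and its log2-fold change was 0.85 (SE 0.22, adjusted p = 0.024, limma). Intact Runx3 was at 0.890, 1.69, 1.81 and 1.73 FPKM, also without overlap, and changed by 0.89 (SE 0.23, adjusted p = 0.025, limma). Replicate 1 was lowest for Runx3 too. Leaving it out raised the intact mean from 5.42 to 6.11 FPKM for Esrrg and from 1.53 to 1.75 FPKM for Runx3. Both calls were lost without unsorted replicate 3 (log2-fold changes 0.74 and 0.78, adjusted p 0.0668 and 0.0703, limma) and without unsorted replicate 4 (0.81 and 0.93, adjusted p 0.067 and 0.0547), and Runx3 also without unsorted replicate 2 (0.89, adjusted p = 0.0619, limma). In a fit of all 12 samples the Etv1 call remained, while Calb1, Runx3 and Esrrg had adjusted p of 0.184, 0.0651 and 0.121 (limma), and with equal FPKM totals those of Runx3 and Esrrg were 0.0554 and 0.0557.

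Shox2 was at 1.45, 2.77, 2.94 and 2.68 FPKM in intact samples, all below the unsorted ones, yet its log2-fold change of 0.75 had an adjusted p of 0.052 (limma). Groups did not overlap upwards for 5 of the 9 genes, beside 20.8% of all genes. Maf, at 20.1, 16.1, 17.4 and 15.6 FPKM in intact samples, overlapped the unsorted range and differed by 0.26 (adjusted p = 0.16, limma). Spp1 (66.4, 71.9, 86.3 and 75.5 FPKM) and Necab2 (6.46, 5.56, 5.60 and 6.71 FPKM) overlapped fully, with log2-fold changes of 0.04 and 0.02.

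Pvalb depended on 1 sample. Intact replicates 1 to 4 were at 441, 63.2, 67.8 and 61.8 FPKM, so that the first was 7.13 times the lowest, while the other 3 lay below every unsorted sample. With all samples the log2-fold change was -0.35 (SE 0.58, adjusted p = 0.69, limma), and without intact replicate 1 it was 0.35 (SE 0.11, adjusted p = 0.039, limma). Without that sample Pvalb passed the test, as did Shox2 (0.53, adjusted p = 0.0335, limma) and Maf (0.33, adjusted p = 0.0421, limma). The 14.8% of all genes that rose belongs to the fit with that sample and is not the background here. Over the 12294 genes tested without it the median log2-fold change was 0.03, and the share that rose is not given. The count of all changed genes also depended on the replicate left out, as given in the last section. The share of skeletal muscle RNA in the Pvalb value of that sample was not tested. With intact replicate 1 included, 29 of the 30 further large-diameter neuron genes were tested, of which 17 rose and 12 did not pass the test, with a median of 0.55.

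The third comparison, MACS-sorted against intact DRG, shares its samples with the first 2 and is given for the values alone. Of the 8 genes tested 6 fell, all without overlap between the groups, and 2 did not pass the test. Esrrg and Shox2, with MACS-sorted means of 0.799 and 0.451 FPKM, entered the test only through their intact level. Of all 12234 tested genes 20.6% fell, 14.1% rose and 21.9% did not overlap downwards. By the stricter criteria 5 were called lower (10.7% of all genes). Runx3 was under the 1 FPKM filter, with means of 0.401 FPKM in MACS-sorted and 1.53 FPKM in intact samples that did not overlap. Log2-fold changes were -4.02 for Pvalb (SE 0.75, adjusted p = 0.0026, limma), -2.36 for Calb1, -2.74 for Esrrg, -2.55 for Shox2, -3.97 for Maf and -4.72 for Spp1 (SE 1.13, adjusted p = 0.0098, limma). The Shox2 call was lost at a pseudocount of 0.01 (-3.48, adjusted p = 0.0551, limma). Without intact replicate 1 the Pvalb value was -3.33 (adjusted p = 0.00254, limma), and without MACS-sorted replicate 2 those of Pvalb, Shox2 and Spp1 were -3.41, -1.85 and -3.31. Etv1 (0.20, adjusted p = 0.43, limma) and Necab2 (0.11, adjusted p = 0.69, limma) overlapped between these groups. Etv1 thus stood at 14.5 ± 1.82 FPKM in intact, 24.8 ± 3.00 FPKM in unsorted and 17.1 ± 4.79 FPKM in MACS-sorted samples (SD, n = 4 each). Of 25 tested genes on the wider list 21 fell and 2 rose. Calb2, at a mean of 0.341 FPKM in MACS-sorted samples, entered only through its intact level.

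The order of levels per length changed with the preparation. In intact and unsorted samples Pvalb and Spp1 came first, with overlapping samples, then a middle set of Maf, Calb1 and Etv1 that overlapped among neighbours, then Esrrg and Necab2, which overlapped only in intact samples, and last the overlapping Shox2 and Runx3. In unsorted samples the means were 82.4 FPKM for Pvalb, 78.4 FPKM for Spp1 and 24.8 FPKM for Etv1 down to 2.87 FPKM for Runx3. In MACS-sorted samples Etv1 came first at 17.1 FPKM without overlap with the next gene, Pvalb, and every later pair of neighbours overlapped.

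Profiles over the 12 samples were compared by the root-mean-square difference of log2(FPKM + 0.1), each gene centred on its mean, against 12282 other genes. Esrrg lay nearest to Slc17a7, a vesicular glutamate transporter (0.188), and Hapln4 (0.197). Epn3 was among the 2 nearest to Runx3 (0.19). Calb1 was nearest to a gene at the position of Sept9 (0.217) and to Ppap2b (0.222), and Maf to Emid1 (0.22) and Gldn (0.224), a gene of Schwann cells at the node of Ranvier. Etv1 was nearest to Cpeb3 (0.134) and Enc1 (0.156), Necab2 to Baiap2 (0.148), and Shox2 to Pls1 (0.269) and Sparcl1 (0.342). Pvalb (Mgst1 0.554 and Aif1l 0.557) and Spp1 (Cmtm5 0.781 and Calb2 0.979) had no close match. Without intact replicate 1, the nearest to Pvalb were Gm16551 (0.219) and Shox2 (0.263), and Pvalb was the nearest to Shox2. These distances are descriptions over samples of 3 preparations, and such likeness includes every gene that sorting lowered.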

How the data were processed

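RNA of 12 mouse DRG samples was sequenced after polyA selection with a directional kit. Alignment by the authors used TopHat2 and mm10, lanes were merged with SAMtools and FPKM came from Cufflinks 2.1.1, and these deposited FPKM values, 1 per gene and sample, were used as they stand. Counts and library sizes were not used here, so depth was inferred from the steps between very low values, with fragments taken as 150 bases long. The table has 24490 rows with 23989 symbols, and the 9 genes each have 1 row. FPKM is a share of each library, so abundant RNA of red blood cells or muscle lowers all other values.

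Groups were taken from the sample titles. Unsorted replicates 1 and 2, with near-equal levels of some genes, differed by 0.335 (root-mean-square log2 difference over 12283 genes), beside 0.361 to 0.426 for the other unsorted pairs and 0.352 for the closest intact pair. They were kept as separate samples, and their mean was tried as an alternative. Groups were compared with limma 3.58.1 (R 4.3.3, eBayes with trend) on log2(FPKM + 0.1), which understates changes of low genes, for genes whose mean reached 1 FPKM in the 8 samples fitted. The study's methods name CuffDiff, which needs the alignments. Exact permutation tests of 4 against 4 samples allow no p below 0.0286, reached by each gene whose groups did not overlap. Profiles and figures used Python 3.11.15 and matplotlib 3.10.9.

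The 9 genes and all lists were chosen with earlier results of these data known. The genes named from the wider list are Ntrk2, Ntrk3, Nefh and the 3 with the largest and the 3 with the smallest log2-fold change in MACS-sorted against unsorted samples, and the 2 nearest profiles of each of the 9 genes were named. Values of a few further genes are left out of the text, and these genes still count in the totals. Cacna1h, Colq and Nefl were added after their values were seen. Alternatives covered the pseudocount, the filter, a fit of all 12 samples, a replicate block, limma without trend, 5 rescalings, the mean of unsorted replicates 1 and 2, and each replicate left out. One that leaves out intact replicate 1 and MACS-sorted replicate 2 together was chosen after seeing the data.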

Additional observations from a re-analysis of the deposited data

Results flagged for a closer look

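Within groups of 4 samples, the gap from an extreme sample to its neighbour was compared with the range of the group (Dixon's 95% criterion). Of 27 groups (9 genes in 3 preparations) 4 exceeded it. The criterion alone flags about 1 in 20 groups. The 27 groups share the same samples and are not independent, so the 4 were not weighed against that rate. Pvalb in intact replicate 1, at 441 FPKM, lay far above the next value of 67.8 FPKM, in the sample with 3592 FPKM of skeletal muscle genes. In the same sample Runx3, at 0.890 FPKM, lay under the next value of 1.69 FPKM, and Esrrg, at 3.38 FPKM, under 5.86 FPKM. Calb1 in unsorted replicate 4, at 24.7 FPKM, lay above the next value of 21.9 FPKM. The causes were not tested.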

How the results depend on the processing

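In MACS-sorted against unsorted samples the number of the 9 genes that changed was 7 to 8 with 1 replicate left out, and that of all genes 4720 to 6067. In MACS-sorted against intact samples these were 6 to 7 and 3311 to 4673, with 2707 genes at a filter of 5 FPKM, where fewer genes were tested (8176). In unsorted against intact samples the number of the 9 genes that changed was 2 to 7 with 1 replicate left out (7 without intact replicate 1, 2 without unsorted replicate 3 or 4), 1 in a fit of all 12 samples, and 2 after scaling to equal FPKM totals or after removal of red blood cell genes. The count of all changed genes was 1594 to 4390 with 1 replicate left out, 1719 in the fit of all samples, 4461 after scaling to pan-neuronal genes and 1692 with unsorted replicates 1 and 2 averaged, which left 8 of the 9 genes changed in MACS-sorted against unsorted and 4 in unsorted against intact samples. The causes were not tested.

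Scaling to pan-neuronal genes moved the median of all genes to -0.12, -0.25 and -0.39 in the 3 comparisons, and quantile normalization to 0.10 and 0.12 in those with sorted samples. With that pan-neuronal scaling, changes that had not passed the test turned sign for Necab2 (-0.24), Maf (-0.0060) and Spp1 (-0.22) in unsorted against intact samples, and for Necab2 (-0.23) and Etv1 (-0.15) in MACS-sorted against intact samples. The split of all genes into higher and lower, 2261 to 3331, 1828 to 965 and 1728 to 2524 in MACS-sorted against unsorted, unsorted against intact and MACS-sorted against intact samples, became 1683 to 3853, 493 to 3968 and 560 to 5426 with pan-neuronal scaling. It became 3956 to 2760 (first) and 3062 to 2079 (last) with quantile normalization, and 852 to 1088 (second) with equal totals or 851 to 1093 with red blood cell genes removed. With 1 replicate left out, Necab2 turned sign in each comparison, ranging from -0.046 to 0.28 (MACS-sorted against unsorted), -0.080 to 0.15 (unsorted against intact) and -0.022 to 0.31 (MACS-sorted against intact). In unsorted against intact samples Spp1 ranged from -0.079 to 0.15 and was also below 0 without intact replicate 1, and Pvalb ranged from -0.60 to 0.35, the last without intact replicate 1.

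Deviations of same-numbered samples from their group means had correlations from -0.16 to 0.07. The titles name no pairing, and whether same-numbered samples shared a preparation or batch was not tested. A sample correlated best with its own number for 1 of 4 numbers in MACS-sorted against unsorted samples and for none in the other comparisons. With a replicate block 8, 5 and 6 of the 9 genes changed in the 3 comparisons, and 5171, 2287 and 3588 genes in all, with Shox2 added in unsorted against intact samples. Low FPKM limit Runx3, Shox2 and Esrrg after sorting.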
